A study of Mus musculus with 6 samples.

Results

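The mitochondrial ribosomal protein genes were taken as every row of the count table whose symbol is Mrpl or Mrps followed by a number and, in some, a letter from a to c. This gave 78 of 53819 gene symbols, 49 of the large subunit (Mrpl) and 29 of the small subunit (Mrps). They were measured in gastruloids, free-floating aggregates that mouse embryonic stem cells form in culture and that elongate and pattern themselves somewhat like an early embryo. All 6 libraries came from the stem cell line E14: 3 of untreated aggregates and 3 of aggregates given budesonide, a synthetic glucocorticoid, for 80 hours. The title of the study ties its question to adhesion between cells, symmetry breaking and pluripotency. The labels name no vehicle for the untreated aggregates and give no time of collection. Nor is it stated that replicates came from separate cultures. The spread on which every p-value here rests is that among the 6 samples, and part of it may be technical.

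Mitochondria keep their own ribosome, which translates the few membrane proteins of the respiratory chain and ATP synthase that mitochondrial DNA still encodes. Its ribosomal RNAs come from mitochondrial DNA, while all of its proteins are encoded in the nucleus, made in the cytosol and imported. Some of these proteins descend from bacterial ribosomal proteins and others have no relative in the bacterial ribosome. The symbols do not follow the structure throughout. Mrps18a and Mrps30 name proteins that sit in the large subunit, and Mrps36 names a protein now assigned to the 2-oxoglutarate dehydrogenase complex.

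The mitoribosomal protein genes as a group stayed close to their untreated level. The test (edgeR quasi-likelihood, Benjamini-Hochberg adjusted over all genes, threshold 0.05) could be made for 77 of the 78, and called 13 of them, 10 higher and 3 lower with budesonide. This is 16.9% of the members tested, against 28.7% of all 17155 genes tested, of which 15.2% were called higher and 13.5% lower. Genes whose mean level lay in the range of the members were called in 35.9% of cases (19.6% higher, 16.3% lower). The largest rise was that of Mrps14, 1.53-fold, and the largest fall among the called genes was that of Mrpl12, 1.39-fold. The counts in each direction depend on how the libraries are scaled: without scaling factors, 5 members were called higher and 7 lower.

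The start regions of 5 members whose call held in most of the alternative settings are shown here, because nuclear genes for mitochondrial proteins are known for promoters with ETS and NRF1 sites. Each runs from 100 bases before the annotated start to 20 bases after it, 5′ to 3′ on the strand of the gene, in RefSeq's GRCm38.p6, a build other than the one the reads were mapped to. Capitals mark 2 motifs searched on both strands, CCGGAAG (an ETS site, bound by factors such as GABP) and GCATGCG (part of the NRF1 site). Mrps14 lies on the forward strand (chr1:160195115-160195234), Mrpl17 on the reverse strand (chr7:105811068-105811187), Mrpl12 on the forward strand (chr11:120484537-120484656), Mrpl18 on the reverse strand (chr17:12916072-12916191) and Mrps26 on the forward strand (chr2:130563657-130563776).
Mrps14: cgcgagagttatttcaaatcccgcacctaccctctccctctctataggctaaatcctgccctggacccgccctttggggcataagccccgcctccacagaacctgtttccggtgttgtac
Mrpl17: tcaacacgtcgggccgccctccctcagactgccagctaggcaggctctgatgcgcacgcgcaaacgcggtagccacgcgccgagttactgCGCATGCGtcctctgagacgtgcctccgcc
Mrpl12: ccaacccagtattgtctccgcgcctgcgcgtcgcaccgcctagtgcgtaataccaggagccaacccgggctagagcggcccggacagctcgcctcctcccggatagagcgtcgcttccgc
Mrpl18: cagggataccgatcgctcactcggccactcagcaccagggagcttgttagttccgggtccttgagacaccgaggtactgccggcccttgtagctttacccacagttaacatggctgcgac
Mrps26: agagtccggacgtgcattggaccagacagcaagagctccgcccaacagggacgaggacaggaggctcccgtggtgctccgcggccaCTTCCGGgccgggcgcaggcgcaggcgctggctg
Only the windows of Mrpl17, with the palindromic NRF1 letters on both strands, and Mrps26, with an ETS site on the opposite strand, hold one of these motifs among the 5 shown. The calls of Mrpl15, Mrpl35 and Mrpl39 held in more alternative settings than that of Mrps26, but their start regions are not shown. A RefSeq promoter of 300 bases was matched by symbol for 69 of the 78 members. The ETS letters occurred in 25 of them, or 36.2%, against 16.3% of the promoters of tested genes. Mrpl17 and Mrpl18 are among the 25, with the letters outside the windows shown. The YY1 letters ATGGCGG occurred in 13 (18.8%, against 7.40%) and the NRF1 letters in 8 (11.6%, against 6.07%). The E-box CACGTG, which MYC and MAX bind, occurred in 5 (7.25%, against 9.76%). Among the members called higher, 2 of 9 with a promoter held the ETS letters, as did 2 of the 3 called lower and 21 of the other 57. The last count includes Mrpl53, which was not tested and holds the letters. These are counts of letters in a window and say nothing of binding.

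Of the large subunit genes, 48 were tested, 7 were called higher (14.6%, against 15.2% of all genes) and 2 lower (4.17%, against 13.5%). Their median log2 fold change was 0.05 and 30 of the 48 were above 0. The median was -0.02 over all genes and 0.03 over genes in the members' range of mean CPM. The number called higher fell to 4 without budesonide replicate 1, and the number called lower rose to 4 without budesonide replicate 3. The 2 genes that fell stand high in the list by level.

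Mrpl12 encodes the protein of the mobile stalk that brings translation factors to the ribosome. Its level, in CPM (reads of the gene scaled to library size, with TMM factors), was 115, 121 and 113 in the untreated libraries and 81.4, 81.1 and 89.2 with budesonide. The 3 treated libraries lay close together and well below the untreated ones. The log2 fold change was -0.48 ± 0.07 (SE, n = 3 per group), with an edgeR adjusted p of 2.38e-07. Mrpl10, whose product anchors the stalk at its base, did not pass the test: it was at 32.1 ± 2.77 CPM (SD, n = 3) untreated and 34.9 ± 4.40 with budesonide, a log2 fold change of 0.12 ± 0.10. Mrpl12 shares 10.3% of its 50-base stretches with other genes, Gm15770 and the antisense transcript Gm16755.

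Mrpl18, the relative of a bacterial protein that holds the smallest ribosomal RNA in the central protuberance, also fell. It was at 93.6, 91.8 and 85.6 CPM untreated and at 75.5, 69.9 and 71.7 CPM with budesonide, with no overlap. Its log2 fold change was -0.32 ± 0.07, with an edgeR adjusted p of 0.00042. Its exons overlap those of Tcp1, a chaperonin subunit gene on the other strand, and 12.6% of its 50-base stretches are shared with Tcp1 or Gm13675. Tcp1 was lower too (769 ± 52.3 against 680 ± 31.4 CPM, log2 fold change -0.18, edgeR adjusted p 0.0117). The strand setting of the counting is not given in the sources used here, so reads of such overlaps cannot be told apart.

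Of the large subunit genes that rose, Mrpl17 changed most. It encodes a relative of bacterial L17. Its level was 41.0, 38.5 and 35.4 CPM untreated and 53.7, 50.5 and 54.2 CPM with budesonide, a log2 fold change of 0.46 ± 0.09 (edgeR adjusted p 5.03e-05). Mrpl15, a relative of a core protein of the bacterial large subunit and the member with the most reads, was at 128, 117 and 125 CPM untreated. With budesonide it was at 171, 134 and 159 CPM, so the treated libraries spread more widely but all lay above the untreated ones (log2 fold change 0.32 ± 0.07, edgeR adjusted p 0.000312). Mrpl35, another protein with a bacterial relative, was at 27.2 ± 2.13 CPM untreated and 35.1 ± 1.37 with budesonide (0.36 ± 0.10, edgeR adjusted p 0.00555).

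A weaker set of rises followed. Mrpl39, found only in mitochondrial ribosomes, went from 47.6 ± 3.10 to 58.5 ± 3.72 CPM (log2 fold change 0.30 ± 0.08, edgeR adjusted p 0.00519), and without budesonide replicate 1 the adjusted p was 0.0536. Mrpl45, the protein that holds the ribosome to the inner membrane beside the tunnel exit, went from 58.8 ± 5.47 to 69.6 ± 2.23 CPM (0.24 ± 0.08, edgeR adjusted p 0.0166). It lost its call without untreated replicate 1 (0.107) or budesonide replicate 1 (0.0868). Mrpl16 (log2 fold change 0.29, edgeR adjusted p 0.0358) and Mrpl43 (0.31, 0.0406) complete the list of rises and are named after their values were seen. Each of these 2 lost its call without any 1 of 4 libraries (untreated replicates 2 and 3, budesonide replicates 1 and 2), with adjusted p from 0.0651 to 0.177 for Mrpl16 and from 0.0582 to 0.230 for Mrpl43.

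**Figure D1:**
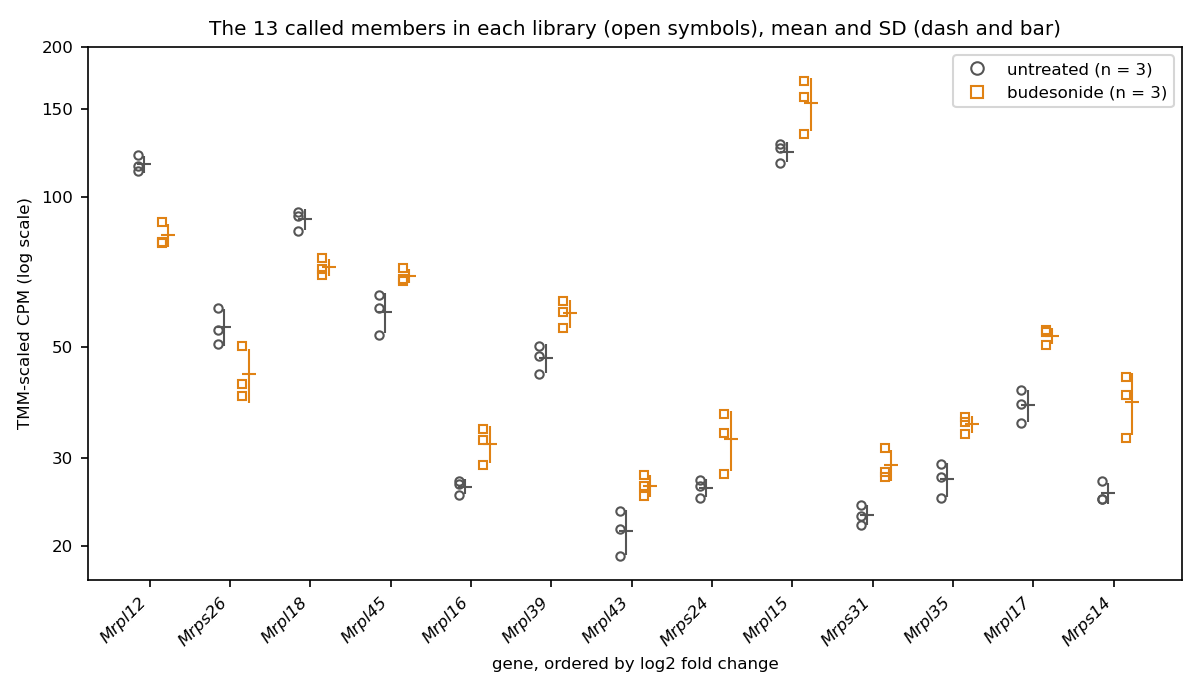
The level of each of the 13 called members in TMM-scaled CPM (log axis) in every library, untreated as circles and budesonide as squares, with the mean and SD of 3 beside them. The groups do not overlap for any of the 13, and the gap is narrowest for Mrps26, whose highest treated library is at 50.4 and lowest untreated one at 50.8 CPM.

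Of the 29 small subunit genes, all tested, 3 were called higher (10.3%, against 15.2% of all genes) and 1 lower (3.45%, against 13.5%). Their median log2 fold change was 0.02, with 19 above 0, beside 0.03 over genes in the members' range of mean CPM. The number called higher fell to 1 without untreated replicate 2 or budesonide replicate 3. The number called lower fell to 0 without untreated replicate 3 or budesonide replicate 2.

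Mrps14, a relative of a bacterial protein of the subunit's head, showed the largest change of any member tested. It was at 24.8, 27.0 and 24.8 CPM in the untreated libraries and at 43.7, 40.2 and 32.9 CPM with budesonide. The untreated values were tight and the treated ones spread more widely, all above them. The log2 fold change was 0.61 ± 0.11, with an edgeR adjusted p of 9.97e-06. It was the one member whose fold passed 1.5, which 18.4% of all tested genes did, and 16.2% of those in the members' range of mean CPM.

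The other small subunit calls were weaker. Mrps26, which has no bacterial relative, was at 50.8, 54.3 and 60.0 CPM untreated and 42.3, 40.0 and 50.4 CPM with budesonide. The groups almost touched (log2 fold change -0.32 ± 0.09, edgeR adjusted p 0.00493), and the adjusted p was 0.0761 without untreated replicate 3 and 0.0614 without budesonide replicate 2. Mrps31, also without a bacterial relative, went from 23.1 ± 1.06 to 29.0 ± 2.10 CPM (0.33 ± 0.11, edgeR adjusted p 0.0220), with 0.0956 without untreated replicate 2 and 0.101 without budesonide replicate 3. Mrps24, the relative of a bacterial protein at the entry of the messenger RNA channel, went from 26.2 ± 1.07 to 32.8 ± 4.51 CPM (0.32 ± 0.11, edgeR adjusted p 0.0254). Its adjusted p was 0.0976 without untreated replicate 2, 0.0621 without budesonide replicate 2 and 0.153 without budesonide replicate 3.

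**Figure D2:**
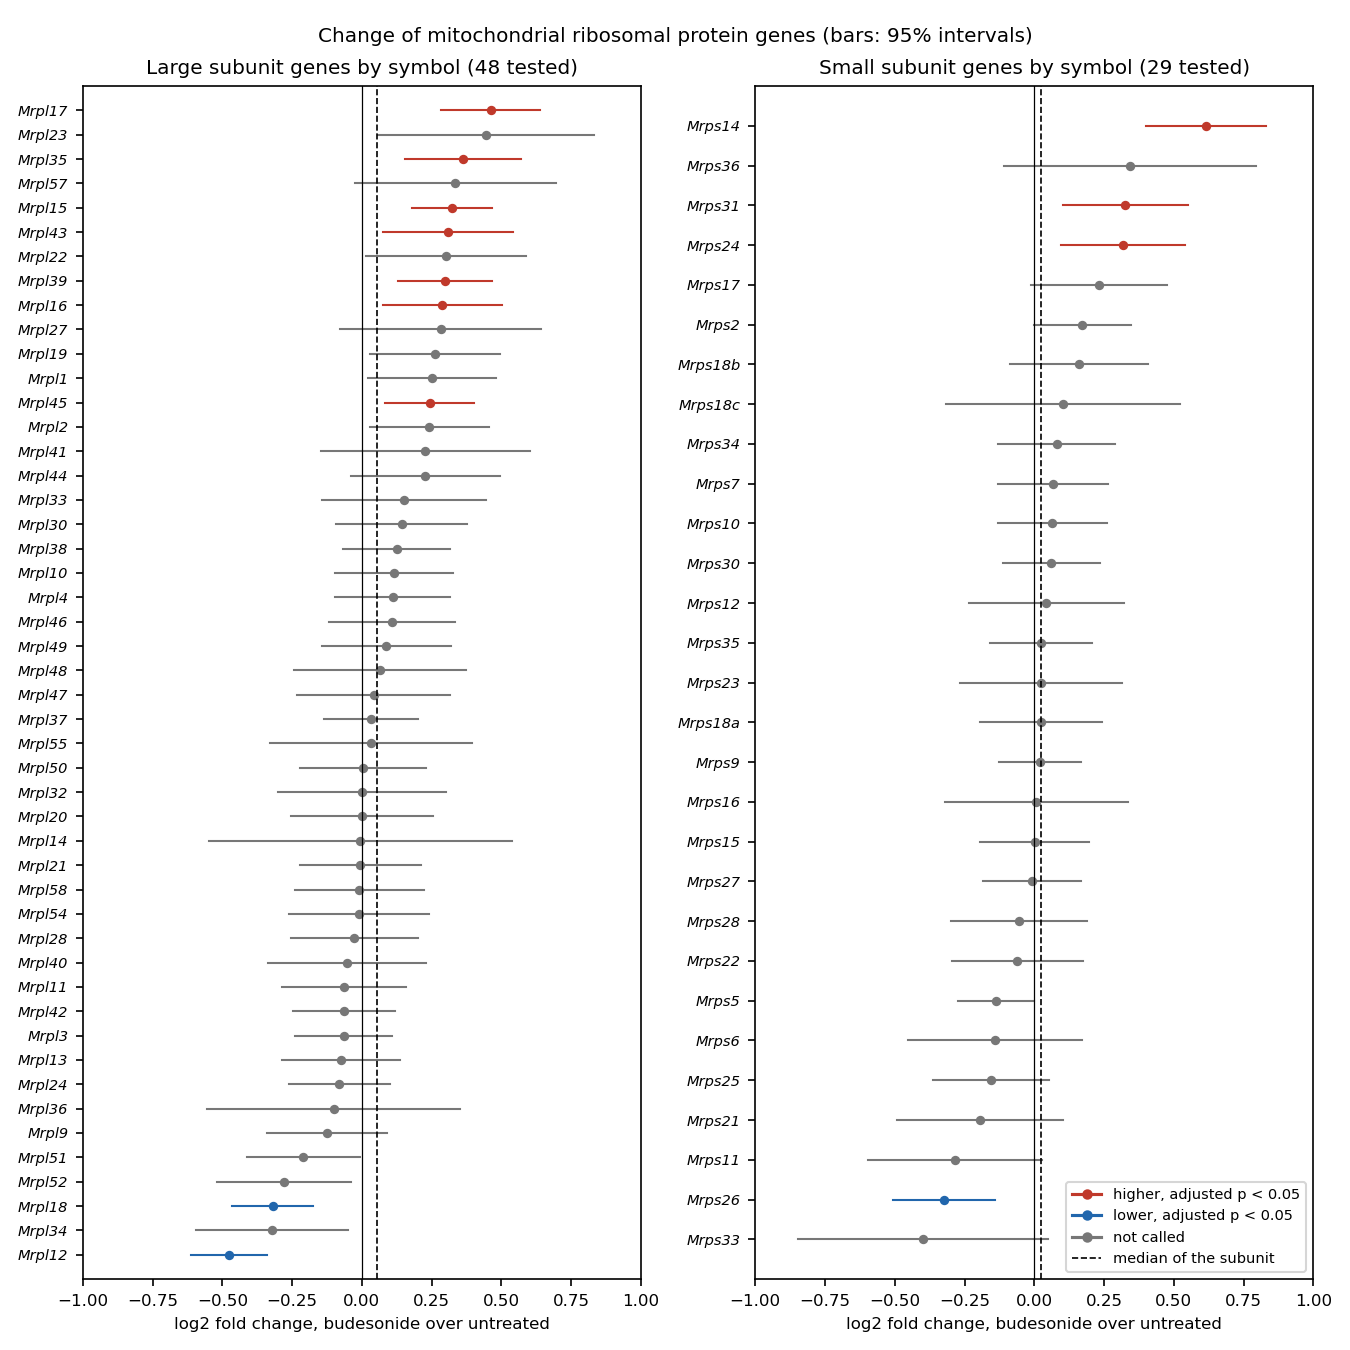
Fitted log2 fold change of budesonide over untreated for the 48 large subunit genes (left) and 29 small subunit genes (right) tested, with 95% intervals, 3 libraries per group. Red points were called higher, blue ones lower and grey ones neither. The dashed medians, 0.05 and 0.02, lie next to 0, and the points run from -0.48 (Mrpl12) to 0.61 (Mrps14).

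The spread of the members was narrow. The SD of their log2 fold changes was 0.21, against 0.50 over all tested genes and 0.49 over genes in the same range of mean CPM. Most of the related lists described below were about as narrow. The SD was 0.19 for cytosolic ribosomal proteins, 0.17 for complex I, 0.18 for complexes II to V and 0.22 for translation factors. It was 0.33 for the assembly genes of the mitoribosome. The groups did not overlap for 19 of the 77, or 24.7%, 13 of them higher and 6 lower, against 39.6% of all genes. For 65 of the 77 members the 95% interval of the log2 fold change lay wholly within a fold of 1.5, which held for 42.3% of all genes. The 39.6% and 42.3% are over all tested genes, not only those in the members' range of mean CPM. Over all 77 tested members, the standard error ran from 0.07 for Mrps5 to 0.27 for Mrpl14, the member with the lowest mean CPM.

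The 3 proteins related to bacterial S18 are split between the subunits, and none of their genes passed the test. Mrps18a, in the large subunit, was at 33.7 ± 4.14 CPM untreated and 34.1 ± 5.33 with budesonide, a log2 fold change of 0.02 with a 95% interval from -0.20 to 0.24. Mrps18b was at 19.5 ± 1.82 and 21.8 ± 0.660 CPM (0.16, from -0.09 to 0.41), with 63.7% of its 50-base stretches shared with other genes, Gm16279 among them. Mrps18c was at 6.24 ± 0.182 and 6.66 ± 0.728 CPM (0.10, from -0.32 to 0.52). The sharing makes the value of Mrps18b uncertain, and that of Mrps18c, with 23.2% shared, less so.

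Mrps30, which also belongs to the large subunit, was at 49.7 ± 2.66 CPM untreated and 51.9 ± 4.91 with budesonide (log2 fold change 0.06). Mrps36, the dehydrogenase component, had 5.24 ± 0.986 CPM untreated and 6.72 ± 1.14 with budesonide (0.34 ± 0.22, edgeR adjusted p 0.277). It shares 36.2% of its stretches with other genes, including its pseudogenes. With the members placed by structure, the large subunit has 50 tested genes, 7 called higher (14%) and 2 lower (4%). The small subunit then has 26, with 3 called higher (11.5%) and 1 lower (3.85%). Of all tested genes, 15.2% were called higher and 13.5% lower. Of the 48 tested members with a bacterial relative, 6 were called higher (12.5%, against 15.2% of all tested genes) and 2 lower (4.17%, against 13.5%). Of the 28 with no relative in the bacterial ribosome, 4 were higher (14.3%) and 1 lower (3.57%).

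Genes of other proteins with a known place or role in the ribosome did not pass the test. Mrps12, which lines the decoding centre, was at 19.3 ± 1.97 CPM untreated and 19.8 ± 4.42 with budesonide, a log2 fold change of 0.04 ± 0.14. Mrpl58, a peptide-releasing factor that became part of the large subunit, was at 24.5 ± 0.711 and 24.4 ± 2.30 CPM (-0.01 ± 0.11). Mrps6 was at 14.0 ± 2.502 and 12.7 ± 1.45 CPM (-0.14 ± 0.15), and Mrpl23, a relative of a protein at the tunnel exit, at 7.12 ± 0.953 and 9.55 ± 1.93 CPM (0.44 ± 0.19, edgeR adjusted p 0.0775). Mrpl23 was called higher without budesonide replicate 3, with an adjusted p of 0.0238. Mrps5, next to Mrpl15 in mean CPM, had 109 ± 3.92 CPM untreated and 99.1 ± 5.04 with budesonide (-0.14 ± 0.07, edgeR adjusted p 0.124). Under 2 other scalings it was called lower.

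Members of low level carry little information. Mrpl14 was at 4.17 ± 1.13 CPM untreated and 4.12 ± 0.751 with budesonide, and Mrpl36 at 6.51 ± 0.692 and 6.03 ± 2.04. Their 95% intervals reach from -0.55 to 0.54 and from -0.55 to 0.35 on the log2 scale. Mrpl53, the member not tested, had 0 reads in every untreated library and 1, 3 and 0 reads with budesonide, at or under a floor of 3 reads per library. It shares 78.5% of its 50-base stretches with other genes, and Gm42688 overlaps it on the same strand. The mean level over all 6 libraries was also divided by the length of the longest annotated transcript. Among the tested members, it ran from 2.24 CPM per kilobase for Mrpl23 to 76.1 for Mrpl12, followed by 66.7 for Mrpl18. The 2 large subunit genes that fell were thus the 2 highest on this measure. Mrpl17, which rose, was at 6.24. The measure depends on the annotated length, which is 1316 bases for Mrpl12, 1219 for Mrpl18 and 7300 for Mrpl17. Before division by length, Mrpl17 was at a mean of 45.5 CPM.

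Sums over a subunit showed no separation. The large subunit genes together were at 1529, 1540 and 1552 CPM in the untreated libraries and at 1641, 1540.3 and 1603 CPM with budesonide, so the groups overlap (ratio of the means 1.04). The small subunit genes summed to 908, 920.1 and 905 CPM and to 936, 891 and 954 CPM (ratio 1.02). The large sum was 1.67 to 1.71 times the small sum untreated and 1.68 to 1.75 times with budesonide. Budesonide replicate 2 had the lowest sum of both subunits among the treated libraries. As a share of counted reads, the members took 0.247% to 0.250% untreated and 0.237% to 0.245% with budesonide, and here the groups do not overlap and the direction is the other way.

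Some related gene sets were higher in sum with budesonide and others lower. Complex I subunits encoded in the nucleus summed to 1416 ± 24.3 CPM untreated and 1642 ± 78.3 with budesonide (ratio 1.16). Subunits of complexes II to V summed to 3486 ± 48.1 and 4031 ± 134 CPM (ratio 1.16), and cytosolic ribosomal proteins to 42286 ± 829 and 48286 ± 2003 (ratio 1.14). In each of these 3 sets all treated libraries lay above all untreated ones. The same held for mitochondrial translation factors (651 to 677 CPM untreated, 685 to 697 with budesonide). It also held for genes of mitochondrial protein import and folding (3510 to 3745 and 3760 to 3861). The median log2 fold changes of these last 2 lists were -0.003 and -0.07. All treated libraries lay below the untreated ones in 3 other sets: assembly genes of the mitoribosome (799 to 834 CPM untreated, 735 to 782 with budesonide), genes for building the cytosolic ribosome (16912 to 17483 and 15133 to 16258) and regulators of mitochondrial genes (1043 to 1081 and 930.2 to 1006). Grsf1 alone fell from a mean of 194 to 122 CPM, by more than the mean assembly sum did. The median log2 fold change of the assembly genes was 0.04. Among the genes for building the cytosolic ribosome, Ncl alone went from a mean of 7545 to 6802 CPM. Beside the 15.2% of all tested genes called higher and 13.5% called lower, 14 of 36 complex I subunits (38.9%) rose and none fell (median log2 fold change 0.21), among them Ndufs1, the largest subunit of the complex (0.39, edgeR adjusted p 4.58e-06). In complexes II to V, 14 of 39 (35.9%) rose and none fell (median 0.15), among them Cox4i1 (0.44) of cytochrome oxidase. Of 79 cytosolic ribosomal protein genes, 49 (62.0%) rose and 2 (2.53%) fell (median 0.20). The complex I count fell to 9 without budesonide replicate 1. Whether the mitoribosomal genes differ from these sets was not tested.

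**Figure D3:**
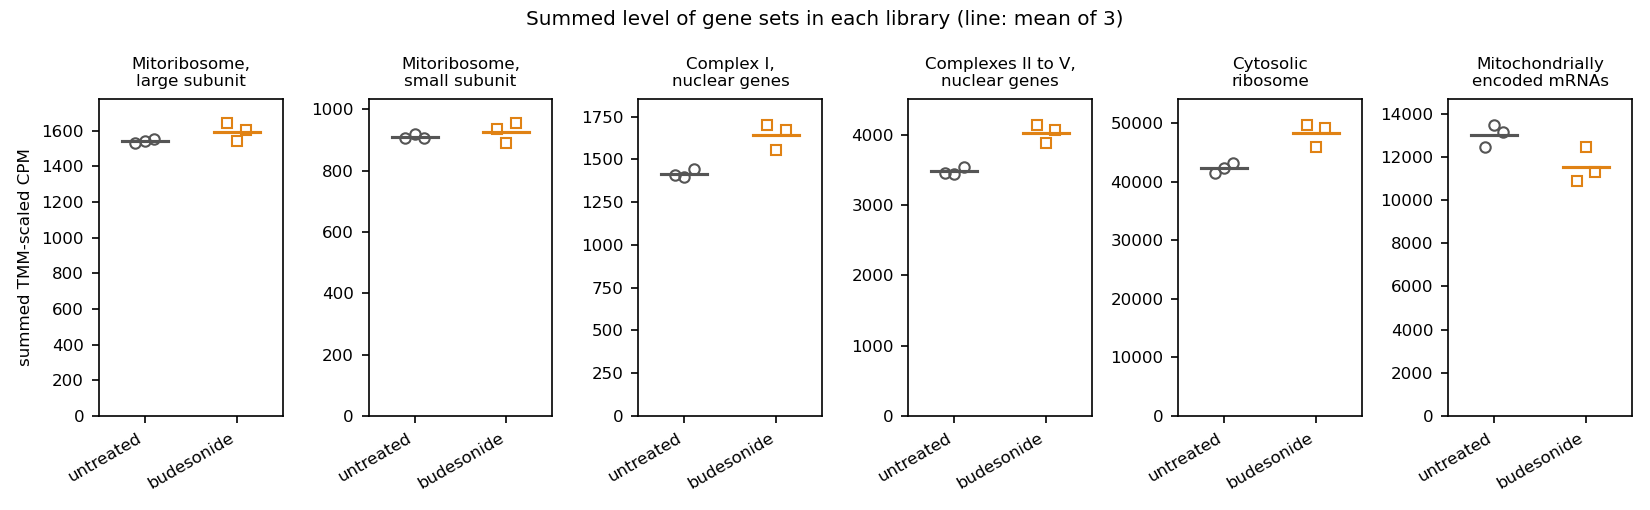
Summed TMM-scaled CPM of 6 gene sets in each of the 3 untreated (circles) and 3 budesonide (squares) libraries, with the mean as a line and each axis starting at 0. The mitoribosomal subunits overlap between groups, while the respiratory complexes and the cytosolic ribosome are higher in all 3 treated libraries.

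The 5 mitoribosomal proteins with other names (Dap3, Ptcd3, Chchd1, Aurkaip1 and Gadd45gip1) were all tested and none was called, against 28.7% of all tested genes. Their log2 fold changes ran from -0.24 to 0.12, with no raw p under 0.05. The smallest adjusted p among them was 0.180 by edgeR, for Gadd45gip1, and 1 was called in another setting. Of 29 genes for assembly of the mitoribosome and modification of its RNA, 5 rose (17.2%, near the 15.2% of all tested genes) and 2 fell (6.90%, against 13.5%), with a median of 0.04. Grsf1, which binds mitochondrial RNA in the granules where it is processed, fell from 194 ± 5.57 to 122 ± 5.698 CPM (-0.68 ± 0.06, edgeR adjusted p 2.26e-12). Noa1, a GTPase of small subunit assembly, fell from 43.8 ± 2.40 to 32.5 ± 2.74 CPM (-0.43 ± 0.10, edgeR adjusted p 0.000462). Rbfa, a small subunit maturation factor, rose from 39.1 ± 1.76 to 48.0 ± 3.15 CPM (0.29 ± 0.09, edgeR adjusted p 0.0103, and 0.0615 without budesonide replicate 3). The number of assembly genes called higher was 3 without any 1 of the budesonide libraries.

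Among the 15 translation factors tested, 2 rose (13.3%, against 15.2% of all tested genes) and 1 fell (6.67%, against 13.5%). Oxa1l, which inserts new proteins into the inner membrane, rose from 33.8 ± 3.61 to 42.1 ± 2.45 CPM (0.32 ± 0.10, edgeR adjusted p 0.00947, and 0.0608 without untreated replicate 1). The elongation factor gene Gfm1 was 0.22 higher (edgeR adjusted p 0.0161), and Tufm, for the factor that carries aminoacyl-tRNA, 0.21 lower on the log2 scale (edgeR adjusted p 0.0300). Gfm1 lost its call without untreated replicate 2 (0.103) or budesonide replicate 1 (0.0837). Tufm lost it without untreated replicate 2 (0.0937) or 3 (0.118) and without budesonide replicate 2 (0.161) or 3 (0.0723). Of 20 genes for mitochondrial tRNA synthetases and related enzymes, Rars2 alone was called (5%, against 28.7% of all tested genes). It rose from 16.7 ± 2.06 to 24.3 ± 2.28 CPM (0.54 ± 0.13, edgeR adjusted p 0.000870). Up to 4 of the 20 were called when 1 library was left out.

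The messenger RNAs that the mitoribosome translates went down in part. Of the 13 encoded in mitochondrial DNA, 7 had enough reads for a test. Of these 7, 4 fell (57.1%, against 13.5% of all tested genes): mt-Nd1, mt-Nd2, mt-Nd6 and mt-Co1. The complex I messenger mt-Nd1 was at 2311, 2587 and 2535 CPM untreated and at 1638, 1843 and 1698 CPM with budesonide, without overlap (-0.52 ± 0.05, edgeR adjusted p 6.69e-11). By contrast mt-Nd5 was at 2529 ± 260 and 2543 ± 206 CPM (0.01 ± 0.07). The call of mt-Co1 (-0.16, edgeR adjusted p 0.0150) was lost without untreated replicate 1 (0.0867) or 2 (0.0766) or budesonide replicate 1 (0.203), and that of mt-Nd6 without budesonide replicate 3 (0.103). The other 6, among them mt-Co2 and mt-Atp6, had at most 5 reads in any library, although such messengers are abundant in most cells. The sources used here give no counting settings, and whether these messengers lost reads in the counting was not tested. The sum over the set overlaps between groups and rests almost wholly on the 7 tested. The ribosomal RNA mt-Rnr2 was 0.22 higher (edgeR adjusted p 0.00425, and 0.252 with upper quartile scaling or 0.159 without scaling factors) and mt-Rnr1 did not pass the test (0.08 ± 0.14), in libraries selected for polyadenylated RNA.

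**Figure D4:**
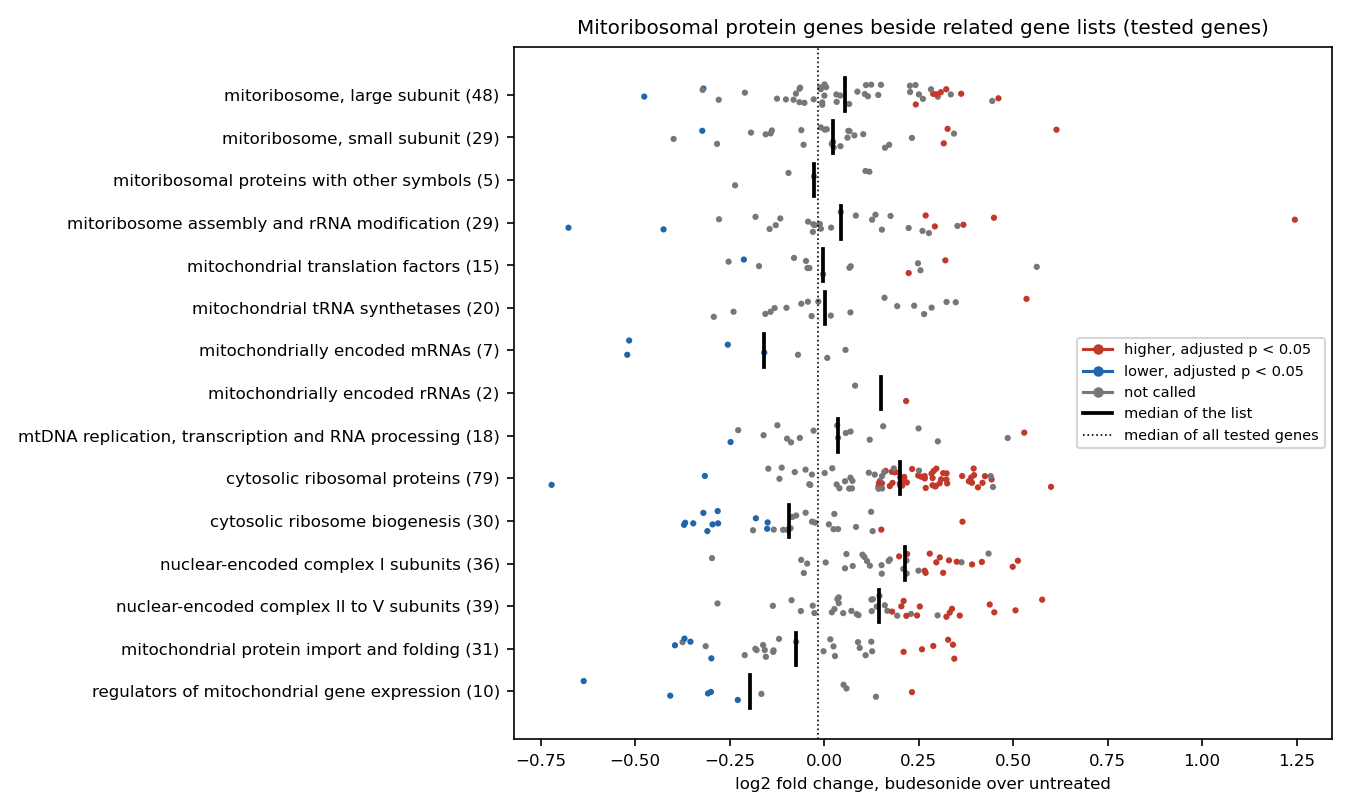
Log2 fold change of every tested gene (points, 3 libraries per group) in the mitoribosomal subunits and 13 related lists, with the number tested in brackets, a bar for each list's median and a dotted line for the median of all tested genes. The mitoribosomal medians (0.05 and 0.02) lie near the dotted line at -0.02, and those of complex I (0.21) and the cytosolic ribosome (0.20) lie above it.

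Of 10 tested genes for proteins known to act on mitochondrial and ribosomal genes, 5 were lower and 1 higher, with a median log2 fold change of -0.20. Of all tested genes, 13.5% were lower and 15.2% higher. Yy1 went from 151 ± 11.2 to 122 ± 8.25 CPM (-0.31 ± 0.07, edgeR adjusted p 0.000291) and Nrf1 from 111 ± 3.18 to 90.0 ± 4.58 (-0.30 ± 0.07, edgeR adjusted p 0.000485). Pprc1, Esrra and Myc were the others that fell, and Max was higher (0.23, edgeR adjusted p 0.0218). Gabpa, the DNA-binding part of GABP, was at 124 ± 6.03 and 129 ± 9.02 CPM (0.06 ± 0.07). The number that fell was 3 without budesonide replicate 2, and Max lost its call without untreated replicate 2 (0.204) or budesonide replicate 1 (0.109).

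The 3 remaining lists concern neighbouring processes. Of 30 genes for building the cytosolic ribosome, 11 fell (36.7%, against 13.5% of all tested genes) and 2 rose (6.67%, against 15.2%), with a median of -0.09, and 7 fell without budesonide replicate 2. Ddx21 (-0.32) and Nop56 (-0.28) fell, and Dkc1 (0.37) rose. Of 31 genes for protein import and folding in mitochondria, 6 rose (19.4%) and 4 fell (12.9%), near the shares of all tested genes (15.2% and 13.5%), with a median of -0.07. Tomm20 (0.34) rose and Tomm40 (-0.30) fell, both of the outer membrane translocase. The number of risen import genes was 2 without untreated replicate 1 and 3 without budesonide replicate 1, and 2 fell without budesonide replicate 2. Of 18 genes for mitochondrial DNA and its transcripts, Top1mt rose (0.53) and Twnk fell (-0.25). Each is 5.56% of those tested, against 15.2% higher and 13.5% lower of all tested genes. Each call was lost when 1 library was left out. The edgeR adjusted p was 0.0659 for Top1mt without budesonide replicate 1. For Twnk it was 0.128 to 0.390 without untreated replicate 1 or 2 or budesonide replicate 2 or 3. Rps10 fell among the cytosolic ribosomal protein genes (-0.72).

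The state of the aggregates differed between the groups beside all of these values. The 8 embryonic stem cell markers, led by Pou5f1, summed to 1331 to 1398 CPM untreated and 2015 to 2216 with budesonide, and 7 of them were higher. The 8 markers of streak and tailbud summed to 271 to 293 CPM untreated and 12.4 to 15.6 with budesonide, with 6 of 7 tested lower. All 3 tested neural markers were higher (sum 23.1 to 25.3 CPM against 39.3 to 45.9). Of 3 cardiac markers tested, 1 was higher and 1 lower. Their median log2 fold change was -0.66, with 2 below 0, while the sum of the list rose (86.8 to 95.4 CPM against 153 to 175). The endoderm list had 1 of 5 tested lower and the fibroblast list 1 of 4. Of all tested genes, 15.2% were called higher and 13.5% lower. The sums of the endoderm markers were 19.6 to 26.7 and 10.1 to 13.7 CPM, those of the fibroblast markers 11.6 to 12.6 and 7.72 to 8.39, and no erythroid marker had enough reads. In bulk RNA, fewer cells of a type and less RNA per cell cannot be told apart. The part that this shift has in any mitoribosomal result was not tested.

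Many of the members share a start region with another gene. In GENCODE M21, 33 of the 78 (42.3%) have the start of a gene on the opposite strand within 1000 bases, against 10.8% of 21922 protein-coding genes. Of the 30 such partners with enough reads, 5 were called higher and 4 lower, shares near the 15.2% and 13.5% of all tested genes. Both sides were called in 2 pairs: Mrpl18 and Tcp1 were both lower, and Mrpl43 was higher while its partner Twnk, the mitochondrial DNA helicase, was lower (66.4 ± 4.33 to 55.8 ± 10.04 CPM). Mrpl43 and Twnk overlap in their exons, and Mrpl43 shares 22.9% of its stretches. Mrpl46 and Mrps11, members of different subunits, are each other's partners, with log2 fold changes of 0.11 and -0.28, neither called. The 22 members that share 10% or more of their stretches with other genes include Mrpl12 and Mrpl18, called lower, and Mrpl43, called higher. Without these 22, 56 remain, with 9 called higher (16.1%, against 15.2% of all tested genes) and 1 lower (1.79%, against 13.5%).

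**Figure D5:**
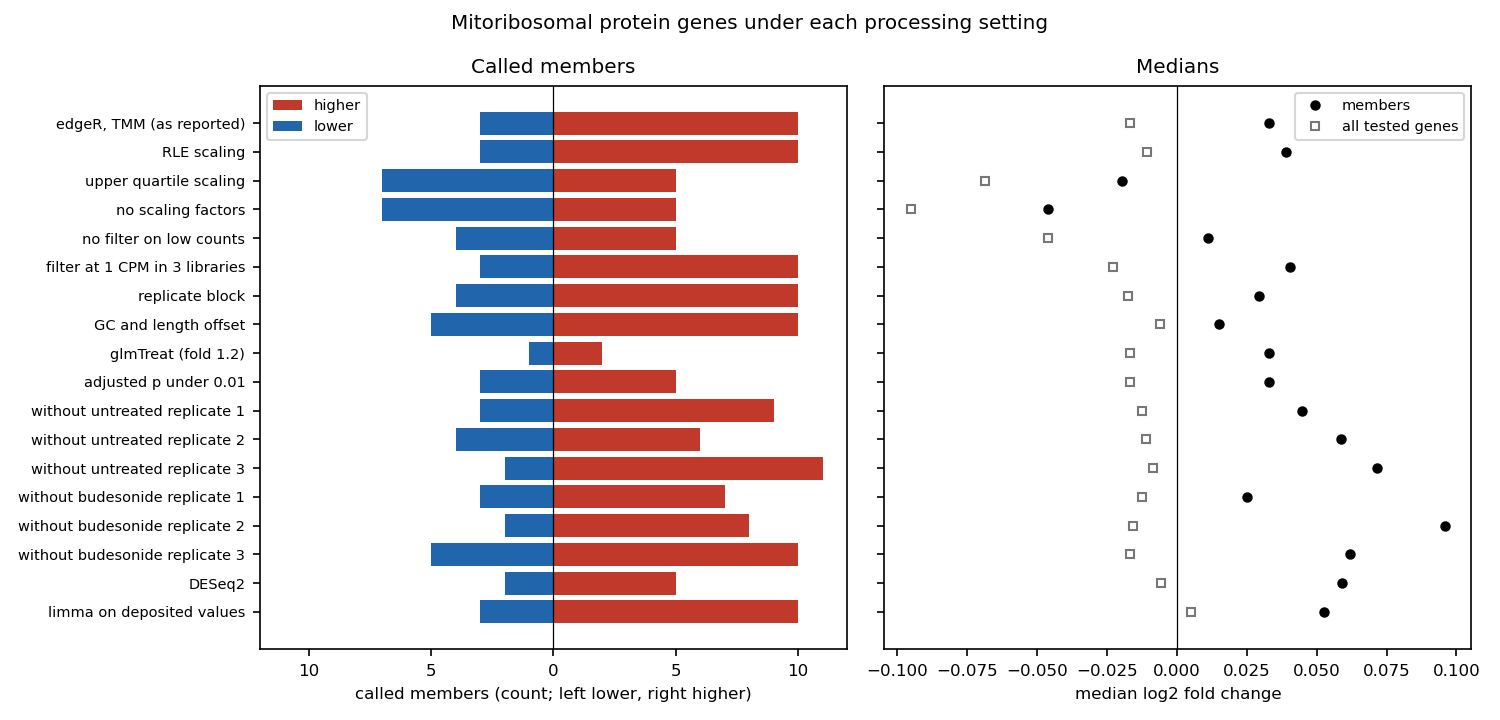
Called members by direction (left, counts; red higher, blue lower) and the median log2 fold change of the members and of all tested genes (right) in the reported setting and 17 alternatives. The split turns from 10 higher and 3 lower to 5 and 7 with upper quartile scaling or none, and the members' median moves with that of all genes.

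The scaling moves every gene alike, and the members move with it. The median over all genes went from -0.02 with TMM to -0.07 with upper quartile scaling and -0.10 without scaling factors, and that of the members from 0.03 to -0.02 and -0.05. The members stayed about 0.05 above the median of all genes in these 3 settings. With TMM, genes in the members' range of mean CPM had a median of 0.026, beside the members' 0.033. Under each of the other 2 scalings, 8 of the 12 calls made were among the 13. The calls of Mrpl16, Mrpl43, Mrpl45, Mrps24 and Mrps31, all higher, were lost under both, and Mrpl34, Mrpl51, Mrpl52 and Mrps5, all lower and named here for that change, were gained. Mrpl12, Mrpl17 and Mrps14 were called in all 17 alternatives. Mrpl15, Mrpl18 and Mrpl35 were called in 16 and lost only when the test asked for a fold above 1.2. No member was called higher in one setting and lower in another.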

How the data were processed

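The labels' protocols give a stranded library kit for polyadenylated RNA. Reads went through cutadapt 2.5, STAR 2.7.5c (build GRCm39) and featureCounts 2.0 per the submitters' processing notes, which list bcl2fastq and DESeq2 too. The sources used here do not state parameters, annotation version or strand setting. The authors deposited raw counts per symbol, and a normalized signal for 33560 genes that was checked to be the count divided by 1 DESeq2 size factor per library, to within 0.056 reads. Libraries held 5666168 to 7476862 counted reads, so 3 reads correspond to 0.422 to 0.552 CPM. Libraries of the same group differed by a chi-square of 1.40 to 2.67 per gene, more than 1 library sequenced again would, which does not show that they came from separate cultures.

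Groups and replicate numbers came from the titles. Counts were tested with edgeR 4.0.16 (R 4.3.3): filterByExpr (minimum count 10, total 15), TMM, robust quasi-likelihood fits on group alone, and adjustment by Benjamini-Hochberg over all tested genes. The TMM factors were 1.02 to 1.04 untreated and 0.960 to 0.989 with budesonide, and the common coefficient of variation was 5.73%. The fits were tested on simulated data first, with 50 changes planted at each fold. They recovered 32% of changes of 1.25-fold, 78% of 1.5-fold and 94% of 2-fold, with 10 false calls. CPM are TMM-scaled, errors are SDs of n = 3 or SEs from the F statistic, and an interval covers 95%.

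Alternatives were other scalings and filters, GC and length offsets, a replicate block, glmTreat at a fold of 1.2, an adjusted p under 0.01, each library left out, DESeq2 1.42.0 and limma 3.58.1 on log2 of the deposited values plus 1. The replicate numbers did not pair the libraries (correlations 0.04, 0.06 and -0.02). The members, the lists and the markers were chosen with earlier results of these data known. Genes named are up to 5 risen and 5 fallen of each subunit by adjusted p, the 3 members of highest and lowest mean CPM, 11 chosen members, and up to 2 risen and 2 fallen of each list; others are said to be outside this rule or serve a count. Neighbours, transcript lengths and shared stretches came from GENCODE M21 (GRCm38), since no GRCm39 genome was used. A gene of the related lists is not reported by name here.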

Additional observations from a re-analysis of the deposited data

How the results depend on the processing

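Large subunit calls of 7 higher and 2 lower became 4 and 5 with upper quartile scaling or no scaling factors, 4 higher without a filter, with an adjusted p under 0.01 or with DESeq2, 4 lower with GC and length offsets, and 1 and 1 with glmTreat. Leaving out 1 library gave 4 to 9 higher and 2 to 4 lower. Small subunit calls of 3 higher and 1 lower became 1 and 2 with upper quartile scaling or no scaling factors, 1 higher without a filter, with an adjusted p under 0.01, with glmTreat or with DESeq2, and 0 lower with glmTreat or DESeq2. Leaving out 1 library gave 1 to 3 higher and 0 to 1 lower. The large subunit median of 0.0542 became 0.0013 with upper quartile scaling, -0.0250 without scaling factors and 0.0934 with DESeq2, and 0.0334 to 0.1150 without 1 library. The small subunit median of 0.0235 became -0.0293 and -0.0551 with the first 2 of these, and 0.0172 to 0.0657 without 1 library. The replicate block gave 7 higher and 3 lower in the large subunit and 3 and 1 in the small, and 4 of 6 libraries correlated best with their own number. The cause of these shifts was not tested, beyond the higher thresholds of glmTreat and of 0.01. Of the 64 members not called, 55 were called in no alternative, and 9 in at least 1. Among the weaker calls, DESeq2 gave adjusted p of 0.0795 for Mrps26, 0.0555 for Mrpl45, 0.0855 for Mrps31 and 0.0897 for Mrps24. Over all alternatives, complex I genes called higher ranged from 0 to 15, those of complexes II to V from 4 to 17, cytosolic ribosomal proteins from 7 to 51, assembly genes from 1 to 5 and import genes from 0 to 7. Lower calls ranged from 0 to 18 for cytosolic ribosome biogenesis, 1 to 4 for mitochondrial messengers, 0 to 8 for import and 0 to 6 for the regulators. Depth limits the members of low level: the standard error of the log2 fold change reached 0.27.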
